A study of Mus musculus with 6 samples.

Results

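The genes described here are imprinted genes, of which 34 were listed and matched by symbol to the probe sets of a mouse expression array. A gene was taken as measured when at least 1 probe set carried its symbol and no other, which held for 30 of the 34 with 89 probe sets, out of 18193 named genes and 45037 probe sets on the array. H19, Rtl1, Dio3 and Zrsr1 had no such probe set. Of the 30 measured genes, 21 reached the minimum mean of 4 on the log2 scale (16 on the linear scale) that was set for testing, as did 8782 genes in all. RNA came from mouse embryonic stem (ES) cells with floxed Dcr alleles, kept in serum and LIF on gelatin. Control cells, called Dcr WT, received GFP alone, and Dcr KO cells received GFP together with Cre recombinase, which cuts out the floxed segment of Dcr, the gene for the enzyme that makes mature miRNAs. Both groups were profiled 5 days after transfection as 3 arrays each, from a polyclonal population rather than a selected clone. No group received Cre without floxed alleles, so Cre and the loss of Dcr cannot be told apart.

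Imprinted genes are transcribed mainly from the copy inherited from a single parent. The choice rests on DNA methylation that is laid down in the germ line at control regions, is kept through the wave of demethylation in the early embryo, and steers a whole domain of neighbouring genes at once, often through a long noncoding RNA. Many of these genes act on growth of the embryo and placenta or on the brain, and in cultured ES cells their imprints are known to drift. Several domains also give rise to miRNAs, whose maturation needs Dcr. The arrays read total transcript, so the parental copies cannot be told apart in any value below.

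The targeted gene, listed as Dicer1, fell by 1.33 on the log2 scale (SE 0.23, adjusted p = 0.0134), with no overlap between the groups. This leaves 39.7% of the Dcr WT level, and the paper describes the cells by this day as mostly Dcr null. That value averages 2 probe sets, which fell by 1.84 and 0.82 (adjusted p = 0.0138 and 0.0908 over probe sets). Pairs of arrays within a group correlated at 0.992 to 0.997 over probe sets. Dcr WT replicate 2 stood apart, with 568 of the 18789 probe sets over the minimum at least 1 log2 unit under both other Dcr WT arrays, against 1 to 90 on the other arrays, and 3 of the 568 belonged to the imprinted genes. Dcr KO replicate 3 had 150 probe sets at least 1 log2 unit above both other arrays of its group, against 1 to 39 elsewhere. All 8 pluripotent stem cell markers were above the minimum, with a summed level of 15.46 to 15.59 log2 on the Dcr WT arrays and 15.61 to 15.64 on the Dcr KO arrays, while 7 of 8 primitive endoderm markers were under it. Of 8 trophectoderm markers, 5 were above the minimum and Cdx2, Elf5 and Hand1 were not, and none passed the test. Their sum was 13.80 to 14.138 on the Dcr WT arrays and 14.143 to 14.26 on the Dcr KO arrays, with Gata3 at a difference of 0.84 (adjusted p = 0.0621). The summed level of 8 fibroblast markers was 11.2 to 11.6 log2 on the Dcr WT arrays and 12.2 to 12.9 on the Dcr KO arrays. That sum moved with Vim, an intermediate filament gene (difference 1.16, adjusted p = 0.0127), while the fibroblast genes Col1a2, Col3a1, Thy1, Postn, Lum and Twist1 were under the minimum. The sum of 6 neural markers was 8.73 to 9.05 on the Dcr WT arrays and 9.49 to 9.73 on the Dcr KO arrays. Tubb3 and Neurod1 rose by 0.73 and 0.83, while Nes differed by -0.07 (adjusted p = 0.759), and Pax6, Sox1 and Map2 were under the minimum. The part of these markers in the results below was not tested.

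Because Dcr matures miRNAs, those that lie inside the imprinted genes come first. The RefSeq table used here (GRCm38.p6), which is not complete, places 63 mature miRNAs within the spans of 7 of the 34 genes. There were 29 within Rtl1, 19 within Mirg, 6 within Rian, 3 within Meg3 and 2 each within H19, Igf2 and Mest. The match was by position and ignored strand, so a miRNA within a span need not come from the transcript of that gene. Those within Rtl1 lie on both strands. The span of Sfmbt2, also known as a miRNA host, held 0 mature miRNAs in this table, so its miRNAs were not searched for any seed. The 63 that were found carry 60 different seeds, the seed being bases 2 to 8 that pair with targets. None of these 63 has AAGUGC in its seed, the hexamer of the ES cell cluster that the study is about. Whether miRNAs of Sfmbt2 carry it cannot be read from this search. The sequences below are the pair of Mest, the host that rose, 5 from Mirg, the transcript that serves as a miRNA precursor, and 1 of the ES cell cluster for comparison. Capitals mark the seed, all lie on the plus strand, and miR-453 and miR-496a-5p share a seed.
miR-335-5p, chr6:30741314-30741336: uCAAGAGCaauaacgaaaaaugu
miR-335-3p, chr6:30741354-30741375: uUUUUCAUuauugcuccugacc
miR-453, chr12:109735669-109735692: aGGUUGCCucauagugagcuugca
miR-496a-5p, chr12:109739132-109739152: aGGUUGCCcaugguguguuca
miR-154-5p, chr12:109738438-109738459: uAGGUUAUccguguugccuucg
miR-369-3p, chr12:109743466-109743486: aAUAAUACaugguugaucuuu
miR-410-3p, chr12:109743764-109743784: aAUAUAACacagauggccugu
miR-295-3p, chr7:3220815-3220837: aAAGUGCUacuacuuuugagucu
The arrays measured the host transcripts and not these mature miRNAs.

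The letters TGCCGC are the core of the site of Zfp57, a zinc finger protein that guards imprints when the site is methylated. Windows of 300 bases, from 250 before to 50 after a RefSeq start, were searched on both strands (TGCCGC or GCGGCA). The letters stood in 10 of the 43 windows of the imprinted genes (23.3%) and in 3813 of all 32851 windows (11.6%). Counted by gene, 9 of 28 imprinted genes (32.1%) and 13.1% of all genes had at least 1 such window. CpG pairs, which the letters contain, had a median of 14 in the windows of the imprinted genes and 7 in all windows, and whether CpG content accounts for the difference was not tested. The 9 genes were Nnat, Mest, Nap1l5, Zim1, Snrpn, Igf2, Plagl1, Grb10 and Meg3. The 250 bases before the start are shown for the 3 genes with a probe set that rose, with the letters in capitals. Mest had the letters at 2 places before the start shown and none in the window of another start upstream, Plagl1 had them at 1, and Ndn did not have them in this window. Neither did Phlda2 or Tssc4, the genes that fell, in theirs.
Mest, chr6:30737800-30738049, plus strand: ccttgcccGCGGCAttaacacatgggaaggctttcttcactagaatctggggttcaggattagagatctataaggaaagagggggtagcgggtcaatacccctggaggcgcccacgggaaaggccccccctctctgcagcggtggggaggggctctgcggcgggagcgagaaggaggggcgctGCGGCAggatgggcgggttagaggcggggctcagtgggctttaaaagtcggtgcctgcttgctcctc
Plagl1, chr10:13090582-13090831, plus strand: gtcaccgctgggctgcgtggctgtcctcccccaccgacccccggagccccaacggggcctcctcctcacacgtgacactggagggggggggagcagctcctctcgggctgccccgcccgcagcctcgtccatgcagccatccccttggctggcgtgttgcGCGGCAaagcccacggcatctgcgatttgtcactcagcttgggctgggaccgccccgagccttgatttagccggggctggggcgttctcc
Ndn, chr7:62348027-62348276, plus strand: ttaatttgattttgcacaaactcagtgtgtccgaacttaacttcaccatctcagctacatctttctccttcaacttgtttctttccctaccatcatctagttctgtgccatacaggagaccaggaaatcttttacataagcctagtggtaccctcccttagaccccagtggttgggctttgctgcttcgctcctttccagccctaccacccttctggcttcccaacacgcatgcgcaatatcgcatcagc

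Of the 21 imprinted genes tested, Ndn and Mest rose in the Dcr KO cells, Phlda2 and Tssc4 fell, and 17 did not pass the test. The 4 that passed were 19.05% of the 21, while 13.3% of all genes tested passed. By direction, 6.91% of all genes rose and 6.42% fell. The median difference, Dcr KO minus Dcr WT, was 0.12 log2 over the imprinted genes and -0.02 over all genes tested, and 16 of the 21 differences were above 0. The groups did not overlap for 7 of the 21 (33.3%), against 39.0% of all genes tested. Those 7 were Ndn, Mest, Peg3, Plagl1 and Nnat, with every Dcr KO array above every Dcr WT array, and Phlda2 and Tssc4, with every Dcr KO array below. When Dcr WT replicate 2, the array that stood apart, was left out, 2 rose and 0 fell. When either Dcr KO replicate 2 or Dcr WT replicate 3 was left out, Ndn was the only gene past the test, and Phlda2 and Tssc4 lost their call whichever of the 6 arrays was left out.

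**Figure D1:**
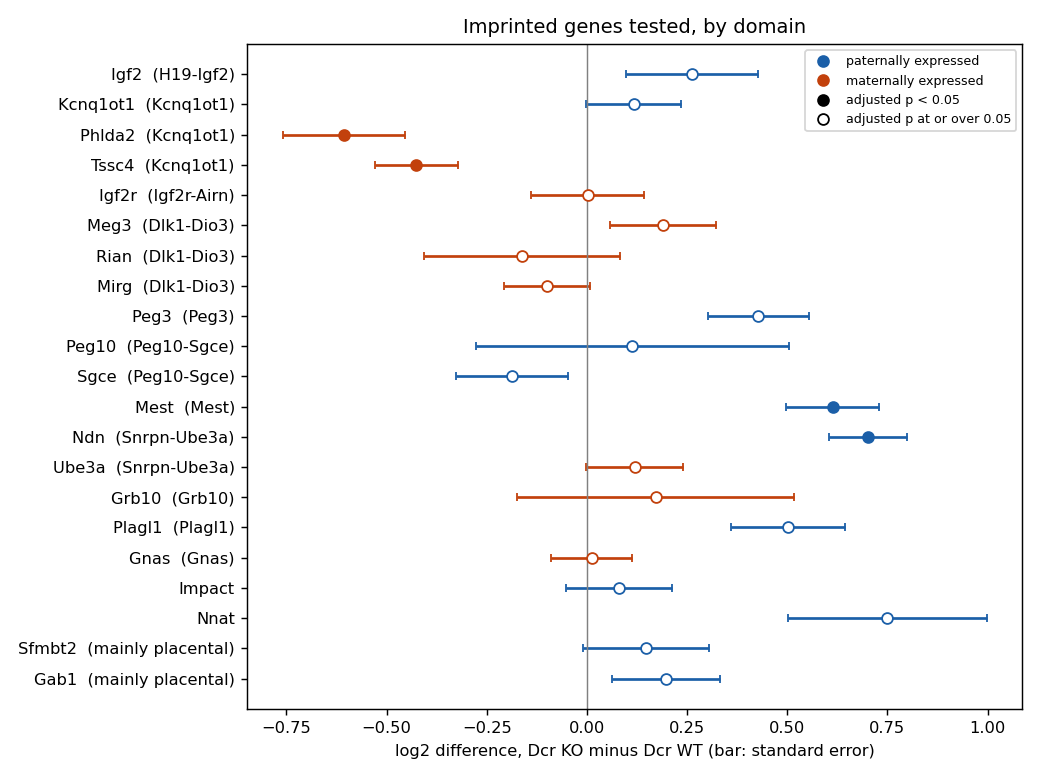
Difference between Dcr KO and Dcr WT for the 21 imprinted genes tested, on the log2 scale (x axis), by gene and domain (y axis). Points are differences of group means with limma's standard error as bars, and filled points passed at an adjusted p of 0.05. Colours give the parental copy reported as expressed where the gene is imprinted, which was not measured in these cells. Ndn and Mest are the filled points to the right, at 0.70 and 0.61, and Phlda2 and Tssc4 those to the left, at -0.61 and -0.43.

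The domain of Snrpn and Ube3a, whose loss in people causes Prader-Willi and Angelman syndromes, held the largest rise that passed. Ndn encodes necdin, a growth-restraining protein of the MAGE family that is abundant in neurons. Its level was 5.89, 6.06 and 6.08 log2 on the Dcr WT arrays and 6.70, 6.69 and 6.74 on the Dcr KO arrays. The Dcr KO arrays lay close together and above all Dcr WT arrays. The mean went from 6.01 ± 0.10 to 6.71 ± 0.03 (SD, n = 3), a difference of 0.70 (SE 0.098, adjusted p = 0.0069) or 1.63-fold. That value averages 8 probe sets, and the 5 above the minimum each rose by 0.99 to 1.14, while the other 3 had levels of about 1 on every array. Of the 5, 2 are of the kind whose probes match this gene alone, and they rose by 1.14 and 1.02. The call held whichever of the 6 arrays was left out, with a highest adjusted p of 0.0366. Ube3a, the ubiquitin ligase gene at the other end of the domain, was 6.35, 6.03 and 6.0 in Dcr WT and 6.21, 6.26 and 6.27 in Dcr KO. These groups overlapped, with a difference of 0.12 (SE 0.12, adjusted p = 0.526). The brightest of the 6 Ube3a probe sets had a mean of 12.03 and differed by -0.02 (adjusted p = 0.935 over probe sets). Magel2, Peg12 and the only Snrpn probe set with a single symbol were under the minimum, at means of 3.08, 3.56 and 3.38. Probe sets shared by Snurf and Snrpn were left out of the gene values and are described at the end. Among these, 1 with a mean of 9.37 fell by 1.05 and another with a mean of 8.57 fell by 1.33 (adjusted p = 0.0498 and 0.0323 over probe sets), and no other passed.

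Mest, also known as Peg1, encodes a hydrolase-like protein of mesoderm and is the host of miR-335, whose sequences stand above. Its level was 10.93, 10.58 and 10.69 on the Dcr WT arrays and 11.38, 11.32 and 11.34 on the Dcr KO arrays. The Dcr KO arrays lay close together, and the groups did not overlap. The mean went from 10.73 ± 0.18 to 11.35 ± 0.03 (SD, n = 3), a difference of 0.61 (SE 0.12, adjusted p = 0.0173) or 1.53-fold. Mest has 1 probe set, and its highest adjusted p without 1 of the arrays was 0.0610.

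Both falls among the gene values came from the Kcnq1ot1 domain, where the long noncoding RNA Kcnq1ot1 silences its neighbours on the paternal chromosome. Phlda2, a brake on placental growth with a PH domain, was 10.98, 10.80 and 11.06 in Dcr WT and 10.38, 10.59 and 10.05 in Dcr KO. Every Dcr KO array was below every Dcr WT array, and Dcr KO replicate 3 was the lowest. The difference was -0.61 (SE 0.15, adjusted p = 0.0394), which leaves 65.7% of the Dcr WT level. Tssc4, a gene of the same domain, was 7.25, 7.34 and 7.27 in Dcr WT and 6.72, 6.96 and 6.90 in Dcr KO. The groups did not overlap here either, and the Dcr KO level was 74.4% of that in Dcr WT (difference -0.43, SE 0.10, adjusted p = 0.0356). Each rests on 1 probe set, and when 1 array was left out the adjusted p ranged up to 0.120 for Phlda2 and 0.0967 for Tssc4. Kcnq1ot1 itself was 4.67, 4.46 and 4.44 in Dcr WT and 4.47, 4.75 and 4.69 in Dcr KO, with overlapping groups (difference 0.12, SE 0.12, adjusted p = 0.528). Of its 6 probe sets, 1 had all Dcr KO arrays above Dcr WT (difference 0.51, adjusted p = 0.0752). Ascl2, a transcription factor of the placenta, was under the minimum at a mean of 3.75.

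Peg3, Plagl1 and Nnat had Dcr KO arrays all above Dcr WT and missed the threshold. Peg3 encodes a large zinc finger protein tied to maternal behaviour and growth, and was 7.31, 7.10 and 7.12 in Dcr WT and 7.44, 7.56 and 7.81 in Dcr KO. Its difference was 0.43 (SE 0.13, adjusted p = 0.0606). That value includes 2 probe sets with levels under 2, and the 3 bright ones differed by 0.73, 0.88 and 0.46, each without overlap and none past the test. Plagl1, or Zac1, is a zinc finger factor that restrains the cell cycle, and was 5.61, 5.08 and 5.38 in Dcr WT and 5.79, 5.89 and 5.89 in Dcr KO. Dcr WT replicate 2, the array that stood apart, was the lowest, and the difference was 0.50 (SE 0.14, adjusted p = 0.0548), or 0.365 without that array. The 1 bright probe set of Plagl1 rose by 0.61 in the test over probe sets (adjusted p = 0.0460), and its name marks it as a set whose probes can also match related transcripts. Nnat encodes neuronatin, a small membrane protein of developing brain and fat, and was 8.60, 8.34 and 8.99 in Dcr WT and 9.03, 9.24 and 9.91 in Dcr KO. The gap between the groups was small, 8.99 against 9.03, and the difference was 0.75 (SE 0.25, adjusted p = 0.0834). The highest Nnat level was on Dcr KO replicate 3, without which the difference was 0.49 (adjusted p = 0.170), and this was the array with the highest sums of fibroblast and neural markers. Zim1, the neighbour of Peg3, was under the minimum at 1.94.

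**Figure D2:**
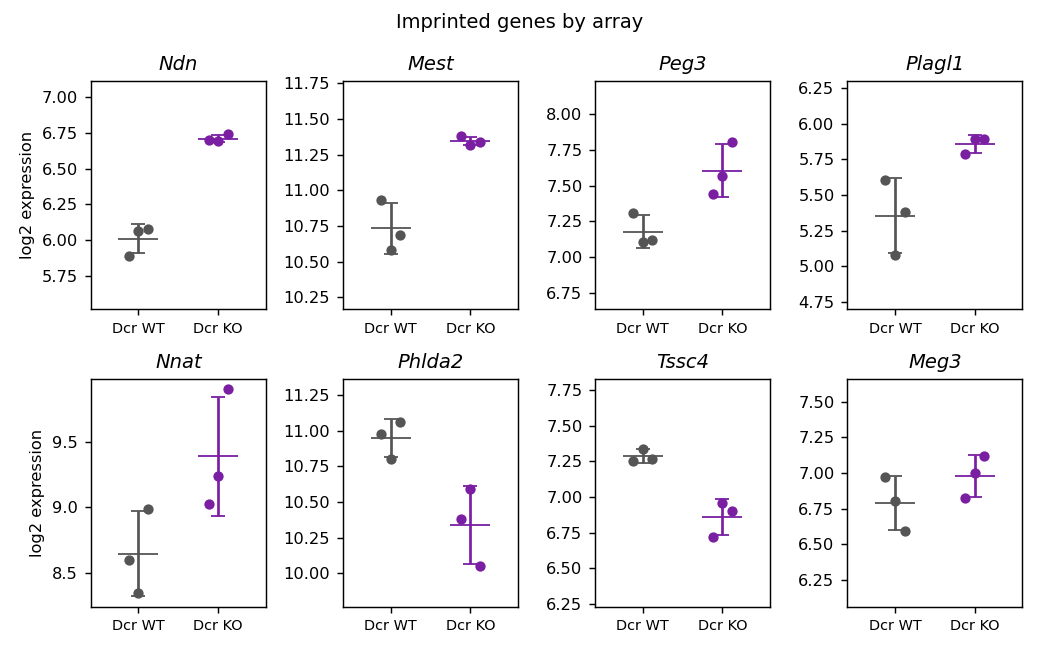
Levels of 8 imprinted genes on each array, as log2 expression (y axes, each panel with its own range), in Dcr WT and Dcr KO (x axis). Points are arrays and the bars mean and SD of 3 arrays. The groups do not overlap for the first 7 genes, while Meg3, shown for comparison, overlaps, with 6.97 on the highest Dcr WT array and 6.82 on the lowest Dcr KO array.

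Igf2 and Igf2r, the textbook pair of a growth factor and the receptor that clears it, did not pass. Igf2 was 6.34, 6.41 and 5.94 in Dcr WT and 6.72, 6.48 and 6.27 in Dcr KO, a difference of 0.26 (SE 0.16, adjusted p = 0.308). That value averages 2 probe sets. The bright one had a mean of 9.91 and differed by 0.37 (adjusted p = 0.263 over probe sets). Igf2r was 7.02, 6.88 and 6.58 in Dcr WT and 6.91, 6.67 and 6.91 in Dcr KO, a difference of 0.0017 (SE 0.14, adjusted p = 0.996). The groups overlapped for both. Airn, the noncoding RNA that silences Igf2r in cis, had a mean of 3.33 over its probe sets, under the minimum. Its level was 3.22, 3.47 and 3.08 in Dcr WT and 3.30, 3.46 and 3.44 in Dcr KO. Its 2 probe sets above the minimum differed by 0.55 and 0.40, with overlapping groups (adjusted p = 0.168 and 0.442).

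The Dlk1-Dio3 domain, from whose maternal copy Meg3, Rian and Mirg are read as long noncoding RNAs, held no gene that passed. It is known for being silenced in some cultured stem cell lines. Meg3 was 6.97, 6.81 and 6.60 in Dcr WT and 6.82, 7.004 and 7.12 in Dcr KO (difference 0.19, SE 0.13, adjusted p = 0.352). The brightest of its 11 probe sets had a mean of 10.54 and differed by 0.07 (adjusted p = 0.826 over probe sets). Rian was 6.91, 6.198 and 7.14 in Dcr WT and 6.32, 6.62 and 6.83 in Dcr KO (difference -0.16, SE 0.25, adjusted p = 0.678). Its 2 lowest values were those of Dcr WT replicate 2 and Dcr KO replicate 1. Mirg, the host of the 5 sequences above, was 6.97, 6.84 and 6.86 in Dcr WT and 6.89, 6.84 and 6.64 in Dcr KO (difference -0.10, SE 0.11, adjusted p = 0.549). The groups overlapped for all 3. Dlk1, a transmembrane ligand related to those of Notch and read from the paternal copy, had a mean of 3.37 over 2 probe sets. It was 3.41, 3.72 and 3.28 in Dcr WT and 3.42, 3.35 and 3.03 in Dcr KO, and its 1 probe set above the minimum differed by -0.33 (adjusted p = 0.463).

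Peg10 and Sgce share a domain and a start region. Peg10, a gene of retrotransposon origin needed for the placenta, was 5.34, 4.92 and 6.65 in Dcr WT and 5.55, 5.82 and 5.88 in Dcr KO. The high value of Dcr WT replicate 3 spread that group beyond the other, and the difference was 0.11 (SE 0.39, adjusted p = 0.862). Without that array the difference was 0.62. Sgce, the sarcoglycan gene next to it, was 5.50, 5.13 and 5.46 in Dcr WT and 5.00, 5.18 and 5.34 in Dcr KO (difference -0.19, SE 0.14, adjusted p = 0.389). The only Sgce probe set above the minimum had a mean of 7.52 and differed by 0.12 (adjusted p = 0.672 over probe sets). The dim one, at a mean of 3.01, differed by -0.49.

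Grb10, an adaptor that dampens insulin and IGF signalling, was 7.63, 6.11 and 6.76 in Dcr WT and 6.76, 6.97 and 7.29 in Dcr KO. The highest and the lowest value were both in Dcr WT, and the difference was 0.17 (SE 0.35, adjusted p = 0.759). The low one, from Dcr WT replicate 2, came with 1 of 3 probe sets, at 6.08, 2.38 and 4.42 on the Dcr WT arrays, and without that array the difference was -0.19. Gnas, which encodes the G protein subunit that stimulates adenylyl cyclase, was 4.41, 4.22 and 4.24 in Dcr WT and 4.31, 4.23 and 4.36 in Dcr KO. Its groups overlapped closely, with a difference of 0.012 (SE 0.10, adjusted p = 0.947). That value averages 5 probe sets, most of them dim, so it understates the level of Gnas. The only Gnas probe set above the minimum had a mean of 12.67 and differed by -0.04 (adjusted p = 0.835 over probe sets).

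Impact, a regulator of the kinase Gcn2, was 6.51, 6.24 and 6.22 in Dcr WT and 6.22, 6.44 and 6.56 in Dcr KO (difference 0.08, SE 0.13, adjusted p = 0.704). Its probe sets went opposite ways. In 1 of them all Dcr KO arrays were above Dcr WT (difference 0.52, adjusted p = 0.148), and in another all were below (difference -0.24, adjusted p = 0.220). Sfmbt2, a Polycomb-related gene, was 7.82, 7.95 and 7.41 in Dcr WT and 7.86, 7.75 and 8.02 in Dcr KO. Its difference was 0.15 (SE 0.16, adjusted p = 0.549). Gab1, an adaptor of receptor tyrosine kinases that is imprinted in the placenta, was 10.33, 9.92 and 10.24 in Dcr WT and 10.25, 10.34 and 10.48 in Dcr KO. Its difference was 0.20 (SE 0.13, adjusted p = 0.345), and the groups of all 3 genes overlapped. The remaining genes under the minimum were Nap1l5, a nucleosome assembly gene at a mean of 2.46, and Dcn, the matrix proteoglycan decorin at 2.42.

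Single probe sets were tested as well, since a gene mean takes in dim ones. Of the 89 probe sets of imprinted genes, 53 were above the minimum, and 7 of them rose and none fell (13.2%, against 7.75% of the 18789 probe sets tested). At an unadjusted p under 0.05, limma gave 15 higher and 2 lower, against 2566 higher and 2644 lower of all 18789. Probe sets of the same gene are not independent, and Ndn alone gave 5 of the 15. Counted by gene, limma gave 5 higher and 2 lower of the 21 tested. Of all 8782 genes tested, 1295 were higher and 1518 lower. The 7 probe sets past the adjusted threshold were 5 of Ndn, 1 of Mest and 1 of Plagl1, so they count as 3 genes. Leaving out Dcr KO replicate 2 gave 0 calls, and leaving out another array gave 4 or 5. Phlda2 and Tssc4 did not pass in this larger test, with adjusted p = 0.0692 and 0.0644.

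**Figure D3:**
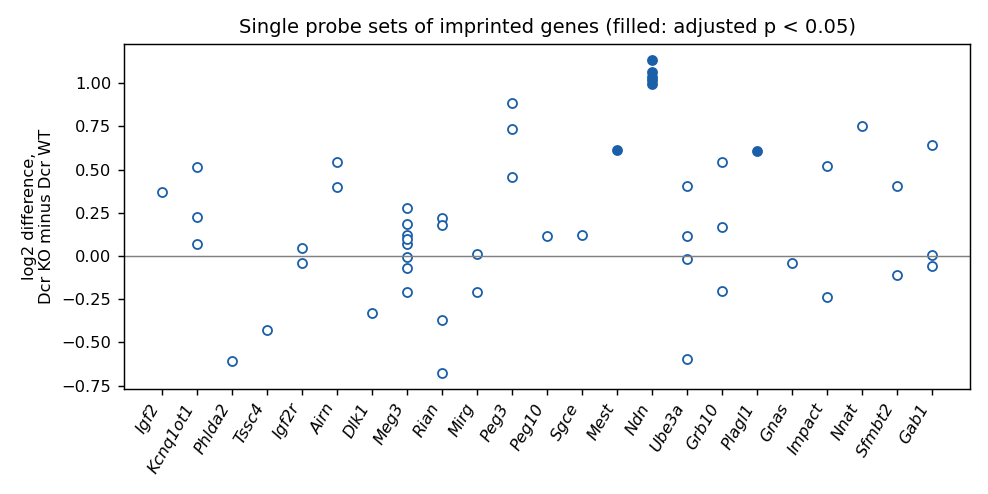
Difference between Dcr KO and Dcr WT (y axis, log2) for each of the 53 probe sets above the minimum, by imprinted gene (x axis). Each point is a probe set, filled where it passed. The 5 probe sets of Ndn cluster at 0.99 to 1.14, while those of Impact lie on both sides of 0, at 0.52 and -0.24.

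By the parental copy reported as expressed where a gene is imprinted, 12 of the tested genes are paternal and 9 maternal. Which copy these ES cells express was not measured. Gab1 and Sfmbt2, counted as paternal, were listed as imprinted mainly in the placenta. The grouping by parental copy was made from textbook knowledge after the values had been seen, so it is given with no test. Among the paternally expressed genes, 2 rose and none fell, 11 of 12 differences were above 0 and the median was 0.23, where 4099 of all 8782 genes tested were above 0. Among the maternally expressed genes, none rose and 2 fell, 5 of 9 differences were above 0 and the median was 0.0017. The exception among the 12 paternal genes was Sgce. These signs depend on how probe sets are combined. With the brightest probe set alone, Sgce was 0.12, Sfmbt2 -0.11 and Gab1 -0.057. Among the maternal genes, Rian was then 0.22 and Mirg 0.010, while Ube3a was -0.020, Grb10 -0.20 and Gnas -0.040. These counts leave out the probe sets that carry the symbols of both Snurf and Snrpn, which are paternally expressed, and 2 of those 6 fell, by 1.05 and 1.33.

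A further 44 genes reported as imprinted in the mouse, mostly neighbours in the same domains, were drawn from a second list. Of these, 37 were measured and 20 tested, of which 3 rose and none fell (15%, against 13.3% of all genes tested), at a median difference of 0.22. At an unadjusted p under 0.05, limma gave 7 higher and 2 lower, against 1295 higher and 1518 lower of all 8782. This list was chosen with earlier results of these data known, which limits what its shares can show. Ddc and Cobl, which flank Grb10, both rose. Ddc, the decarboxylase that makes dopamine and serotonin, was 4.76, 4.87 and 4.99 in Dcr WT and 5.40, 5.53 and 5.36 in Dcr KO (difference 0.56, SE 0.11, adjusted p = 0.0179). Cobl, a nucleator of actin filaments, was 4.63, 4.72 and 4.82 in Dcr WT and 5.26, 5.20 and 5.20 in Dcr KO (difference 0.50, SE 0.097, adjusted p = 0.0191). The groups of both were well apart, while those of Grb10 overlapped. Each value averages a bright probe set with a dim one, and the bright ones alone rose by 1.16 for Ddc and 0.90 for Cobl (adjusted p = 0.0078 and 0.0112 over probe sets).

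Mkrn3, a ring finger gene of the Ndn neighbourhood that restrains puberty, rose as Ndn did. It was 6.40, 6.49 and 6.63 in Dcr WT and 7.01, 6.94 and 7.0 in Dcr KO (difference 0.48, SE 0.10, adjusted p = 0.0240), again with no overlap. Ndn, Mkrn3 and Cobl are on the paper's list of predicted targets of the ES cell cluster, and Mest and Ddc are not. Nnat, Gab1, Blcap and Casd1, which did not pass, are on it too. The list kept only genes higher in Dcr KO cells and in cells without the cluster, so it is not independent of these values. Whether loss of the cluster accounts for these rises was not tested. Mkrn3 lost its call in 5 of the 6 fits without 1 array, Cobl in 3 and Ddc in 1, the fit without Dcr KO replicate 2 in each case among them. The genes next in order of adjusted p did not pass. Dhcr7, the last enzyme of cholesterol synthesis, had the largest difference of them, -0.81 (SE 0.23, adjusted p = 0.0559), with Dcr KO replicate 3 the lowest at 7.96. It passed without that array (difference -0.51, adjusted p = 0.0333) and without Dcr KO replicate 1. Blcap, which surrounds Nnat, differed by 0.53 (adjusted p = 0.0742). Osbpl5, Casd1 and Cd81 differed by 0.45, 0.36 and 0.24 (adjusted p = 0.0749, 0.101 and 0.132).

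The last list held 25 genes that set, keep, erase or bind imprints, or are tied to genes that do. Of these, 23 were tested, 4 rose and none fell (17.4%, against the same 13.3%), at a median difference of 0.07. At an unadjusted p under 0.05, limma gave 6 higher and 1 lower, against 1295 higher and 1518 lower of all 8782. Because the list was chosen with earlier results of these data known, its shares cannot be read as a result about such genes. All 10 genes of imprint maintenance were measured and none passed, among them Zfp57, whose letters were searched above, with a difference of 0.00 (SE 0.23), and its partner Trim28 with -0.02 (SE 0.098). Dnmt1, which copies methylation after replication, differed by 0.23 (SE 0.14, adjusted p = 0.289).

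The rises were among the genes listed outside imprint maintenance. Rbl2, a pocket protein that the literature ties to Dnmt3 genes in cells without Dcr, was 4.13, 4.02 and 4.16 in Dcr WT and 5.41, 5.23 and 4.92 in Dcr KO. Its difference of 1.08 (SE 0.14, adjusted p = 0.0056) was the largest in the list. Kdm1b, a histone demethylase that oocytes need to set maternal imprints, was 7.84, 7.91 and 7.98 in Dcr WT and 8.77, 8.82 and 8.53 in Dcr KO (difference 0.80, SE 0.11, adjusted p = 0.0071). The groups of both genes were far apart. Tet2, which oxidises methylated cytosine, was 7.71, 7.80 and 7.58 in Dcr WT and 8.50, 8.57 and 8.38 in Dcr KO (difference 0.79, SE 0.11, adjusted p = 0.0062). Arid4a, a chromatin factor of the Prader-Willi control region, was 4.17, 4.15 and 4.06 in Dcr WT and 4.67, 4.54 and 4.57 in Dcr KO (difference 0.47, SE 0.095, adjusted p = 0.0217). Again the groups did not overlap. Arid4a is also on the paper's list of predicted targets of the ES cell cluster, and the paper cites earlier work in which that cluster targets Rbl2. The part of this in the rises was not tested. The only Arid4a probe set above the minimum, of 3, rose by 0.91, and that of Rbl2, of 2, by 1.34 (adjusted p = 0.0129 and 0.0128 over probe sets). Rbl2, Kdm1b and Tet2 passed whichever of the 6 arrays was left out, and Arid4a in 3 of the 6 fits.

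The methyltransferases that lay down imprints did not pass. Dnmt3a differed by 0.30 (SE 0.11, adjusted p = 0.0997) and Dnmt3b by -0.28 (SE 0.11, adjusted p = 0.131), and for each the groups did not overlap. Arid4b, Hells and Tet1 differed by 0.57, -0.24 and 0.43 (adjusted p = 0.150, 0.201 and 0.234). A change in the makeup of the population and a change per cell cannot be told apart for any of these genes in bulk RNA.

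**Figure D4:**
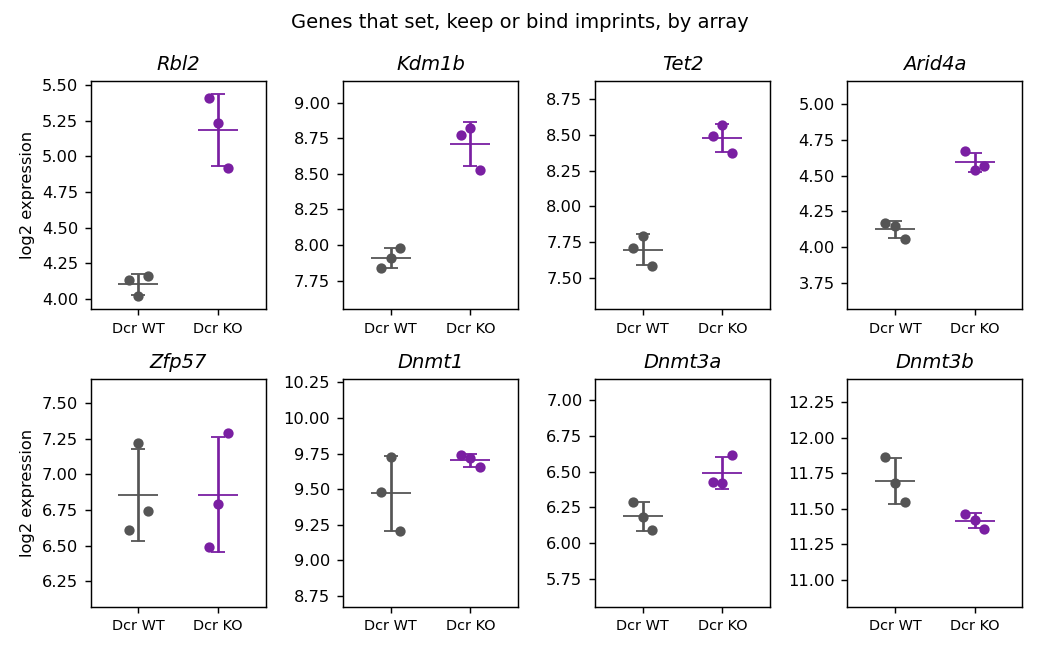
Levels of 8 genes listed as acting on imprints or tied to genes that do, on each array of Dcr WT and Dcr KO (x axis). Values are log2 expression (y axes, each panel with its own range), with mean and SD of 3 arrays. Rbl2, Kdm1b, Tet2 and Arid4a in the upper row are separated, Rbl2 by 1.08, while Zfp57 has equal means in both groups.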

How the data were processed

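For 3 Dcr WT and 3 Dcr KO arrays the authors deposited values on the log2 scale, made with GCRMA 2.20.0 in R 2.11.1 per the submitters' notes. GCRMA corrects background from probe sequence and normalizes arrays together. For a figure of correlations, the paper normalized these deletion samples together with arrays of chronic Dcr deletion lines. Whether the deposited values come from that step was not stated in the sources read. Which other arrays shared the normalization could change the values. The methods call the replicates biological triplicates. Array medians were 2.96 to 3.01, no arrays were identical (0 pairs), and 0 value columns were left unused.

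Symbols came from the platform annotation, where 34945 probe sets had 1 symbol, 932 several and 9160 none here. Log2 values of probe sets with 1 symbol were averaged by gene. Groups were compared by limma 3.58.1 (lmFit, eBayes) under R 4.3.3, over all genes, or all probe sets, whose mean reached 4, with Benjamini-Hochberg adjustment and a threshold of 0.05. An exact two-sided permutation test of 3 arrays against 3 goes no lower than 0.1, and the number of arrays limits the precision. The code was tested on simulated data. Alternatives were a replicate block, no filter, a stricter filter (mean of at least 6), the brightest probe set of a gene, another quantile normalization, a trended robust prior, array weights and leaving out each array. The members and lists were chosen with earlier results of these data known. Every imprinted gene is named, with array values where the gene or a probe set of it reached the minimum, and of the other lists those that passed and the 5 next by adjusted p (Zfp57, Trim28 and Dnmt1 were added after their values were seen). Sequences and their coordinates are from RefSeq (GRCm38.p6), where 28 of the 34 genes had a start window. Python 3.11.15 with pandas 2.3.3 and numpy 2.4.6 made the tables.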

Additional observations from a re-analysis of the deposited data

How the results depend on the processing

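With 3 arrays a group, calls near the threshold depended on the model and on single arrays. Of the imprinted genes, 5 rose and 1 fell with array weights, a setting in which Dcr KO replicate 2 had a weight of 8.12 against 0.40 to 1.07 for the others, and leaving out 1 array gave 1 to 3 higher and 0 lower. Deviations from the group mean correlated at -0.22, -0.022 and 0.029 between same-numbered arrays over 8782 genes. These values cannot decide whether the replicate numbers mark pairs, since 1 unusual array shifts the deviations of its whole group. How the replicates were run was not stated. With the replicate block 0 imprinted genes fell, 0 of the other imprinted genes rose, and 4 probe sets rose. Of the other imprinted genes, 1 rose with the stricter filter, 1 fell with array weights and 1 with the trended robust prior, and leaving out 1 array gave 0 to 3 higher and 0 to 1 lower. With the stricter filter, which tests fewer genes, 2 of the genes listed as acting on imprints or tied to genes that do rose. Among probe sets, 1 fell with array weights, 1 with the stricter filter and 1 with the trended robust prior, and leaving out 1 array gave 0 to 5 higher and 0 lower.

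Differences near 0 changed sign. With array weights Igf2r became -0.15, Grb10 -0.025 and Gnas -0.066, and with another quantile normalization Igf2r became -0.035. With the brightest probe set alone Rian became 0.22, Mirg 0.010, Sgce 0.12, Ube3a -0.020, Grb10 -0.20, Gnas -0.040, Sfmbt2 -0.11 and Gab1 -0.057. Leaving out 1 array gave -0.12 to 0.099 for Igf2r, -0.44 to 0.034 for Rian, -0.24 to 0.62 for Peg10, -0.19 to 0.57 for Grb10, -0.022 to 0.071 for Gnas and -0.013 to 0.26 for Sfmbt2. The cause of these shifts was not tested. Plagl1 passed with array weights (adjusted p = 0.0212) and with its brightest probe set (0.0246), Peg3 with array weights (0.0342) and Nnat with array weights (0.0442) and the replicate block (0.0402). Ndn, Rbl2, Kdm1b and Tet2 kept their call in every setting run that tested them.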

Other observations

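Probe sets that carry several symbols were left out of the gene values, and 8 of them name an imprinted gene together with a neighbour. They are given here by both symbols, with no assignment to either gene. For the pair Snurf and Snrpn, which the annotation joins on 6 probe sets, 2 fell in the Dcr KO cells. In the first the level was 9.83, 9.73 and 10.13 log2 in Dcr WT and 8.30, 9.17 and 9.06 in Dcr KO (difference -1.05, SE 0.25, limma adjusted p over probe sets = 0.0498). In the second it was 9.35, 8.92 and 9.45 in Dcr WT and 7.36, 8.22 and 8.14 in Dcr KO (difference -1.33, SE 0.26, adjusted p = 0.0323). Another had all Dcr KO arrays below Dcr WT, at 10.19, 10.20 and 10.26 against 9.87, 9.83 and 9.68 (difference -0.42, adjusted p = 0.0582). The other 3 overlapped, with differences of -0.15 and -0.18 in those above the minimum. The bright probe sets of Ndn, in the same domain, rose. The probe set shared by Mir675 and H19 was 9.48, 9.88 and 9.54 in Dcr WT and 9.94, 9.84 and 9.38 in Dcr KO, with overlapping groups (difference 0.09, SE 0.19, adjusted p = 0.789). The 1 shared by Airn and Igf2r was at or under 2 log2 on every array.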
